A study of Ipomoea batatas with 18 samples.

Results

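Between 30 and 100 days, a small set of root transcripts went from like mean levels in 2 sweetpotato (Ipomoea batatas) cultivars to levels that did not overlap between them. These late-gap unigenes numbered 138 of the 46840 in the table. A unigene is a transcript of a de novo assembly, that is, one put together from reads without a genome. Of the 138, 61 were higher in the cultivar Chuanshu 218 at 100 days and 77 were higher in 15-94. A unigene was taken when the lowest of the 3 libraries of one cultivar at 100 days was at least 2 times the highest of the other. The cultivar means at 30 days also had to differ by less than 0.5 on the log2(FPKM + 1) scale, and the mean over all 18 libraries had to be at least 5 FPKM (fragments mapped per kilobase of transcript, scaled to the mapped total of the library). The unigenes were thus chosen by their FPKM values at 30 and 100 days, which are given as a description, with no test. The libraries at 65 days entered the choice only through the mean over all 18, and the single test below uses them.

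The study compared the high-starch cultivar Chuanshu 218 with the low-starch cultivar 15-94. RNA came from roots of both at 30, 65 and 100 days of age, with 3 libraries in each of the 6 groups, from plants kept 1 to a pot in a greenhouse under natural light. The labels give no other treatment, and the plants behind each library are not named, so p-values reflect only how far these libraries lie apart, which may be technical. Starch class and cultivar coincide, so a difference between the cultivars cannot be assigned to starch.

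Sweetpotato stores starch in storage roots, which form when some of the young roots thicken. During thickening the root is known to turn from a structure for uptake and lignified transport into one that builds and keeps starch and storage proteins, among which sporamin is the most prominent. Many root transcripts therefore shift with age, and cultivars can differ both in which transcripts shift and in when. The files give unigene IDs without gene names. None of the IDs was found in the gene table of the reference assembly IBA_r1.0 (0 matched), so no gene role is stated here, the root label could not be set against marker genes, and 2 IDs are named in each direction. Sweetpotato is polyploid, and the treatment of reads from near-identical gene copies is not stated by any source used.

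The number of reads per library is unknown. Relative depth was read from the steps between low FPKM values, which give the value of 1 read on a log2 scale set to 0 in the library with the smallest value. At 100 days this value ran from 0.27 to 0.49 in Chuanshu 218 and from 0.95 to 1.20 in 15-94, so 1 read was worth more FPKM in every 15-94 library of that age. At 65 days the ranges were 0.08 to 0.86 and 0.71 to 1.09. They were 0.0 to 1.21 and 0.93 to 2.0 at 30 days, with the lowest value in replicate 2 of each cultivar. The part of depth in the 100-day gaps was not tested. In 2 libraries, 15-94 replicate 3 at 65 and at 100 days, the top 10 unigenes held 25.8% and 40.5% of the FPKM sum, and in no other library did they exceed 17.3%.

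At 100 days, 593 of 16616 unigenes with a mean of at least 5 FPKM had their nearest libraries at least 2-fold apart with Chuanshu 218 higher (3.57%), and 780 with 15-94 higher (4.69%). The limit at 30 days kept 61 and 77 of them. Values close to a limit differed little on its 2 sides. The fold between the nearest libraries was 2.008 for the last unigene inside and 1.984 for the first outside in the Chuanshu 218 direction, and 2.0 and 1.991 in the 15-94 direction. For the difference at 30 days the pairs were 0.491 and 0.517, and 0.499 and 0.502. For the mean level they were 5.126 and 4.944 FPKM, and 5.194 and 4.821 FPKM.

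The numbers of late-gap unigenes depended on single libraries at 100 days, and which unigenes were taken depended on single libraries at 30 days. With 2 libraries in place of 3 in a group, fewer values have to be separated and more unigenes qualify. Without Chuanshu 218 replicate 2 or 3 at 100 days there were 126 and 206 in the Chuanshu 218 direction and 171 and 241 in the 15-94 direction. Without 15-94 replicate 1, 2 or 3 at 100 days there were 129, 171 and 123 in the first direction and 119, 172 and 158 in the second. With any 1 library of 100 days left out, at least 58 of the 61 and 76 of the 77 were kept. Without 15-94 replicate 1 at 30 days the second number was 117. With any 1 library of 30 days left out, 30 to 40 of the 61 and 37 to 60 of the 77 were kept. Fewest were kept without 15-94 replicate 2, where 46 and 61 unigenes were taken. Leaving out both libraries with the large share of abundant unigenes gave 125 and 157, which held 61 of the 61 and 73 of the 77. Over these larger sets the median gap at 65 days was 0.50 and 0.46 log2 units, against 0.97 and 0.80 over the 61 and 77.

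By median level, the 61 unigenes higher in Chuanshu 218 at 100 days were alike in the cultivars at 30 days and lower in 15-94 at 65 days. In Chuanshu 218 their library medians were higher at 100 days than at any earlier age. This did not hold for each unigene: the Chuanshu 218 mean was higher at 100 than at 65 days in 54 of the 61. Their median log2(FPKM + 1) was 3.70, 2.97 and 3.67 in the 3 Chuanshu 218 libraries at 30 days and 2.92, 3.79 and 3.39 in those of 15-94. The cultivars overlapped fully at that age. At 65 days the medians were 3.64, 3.81 and 3.08 in Chuanshu 218 and 2.07, 2.92 and 2.27 in 15-94. All 3 Chuanshu 218 medians lay above all 3 of 15-94, though replicate 3 of the first and replicate 2 of the second were close. At 100 days they were 4.58, 4.46 and 4.33 in Chuanshu 218 and 2.62, 2.49 and 2.44 in 15-94, a separation that the choice required. In whole roots, fewer cells of a type and less RNA per cell cannot be told apart. The 61 together held 0.291% to 0.398% of all FPKM in the Chuanshu 218 libraries at 100 days and 0.034% to 0.069% in those of 15-94.

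The 77 unigenes higher in 15-94 showed the reverse order of levels. Their median log2(FPKM + 1) at 30 days was 3.6, 4.45 and 3.96 in Chuanshu 218 and 4.62, 3.57 and 4.42 in 15-94. At 65 days it was 3.71, 3.42 and 4.26 in Chuanshu 218 and 5.07, 4.31 and 5.04 in 15-94. The same pair of libraries as in the other direction, Chuanshu 218 replicate 3 and 15-94 replicate 2, nearly met. At 100 days the medians were 2.35, 2.55 and 2.78 in Chuanshu 218, lower than at any earlier age, and 4.37, 4.73 and 4.92 in 15-94. The 77 held 0.106% to 0.153% of the FPKM in Chuanshu 218 and 0.367% to 0.45% in 15-94 at that age. Over all unigenes with a mean of at least 5 FPKM the library medians lay between 4.03 and 4.23. Whether the authors had scaled the libraries to like levels is not stated, so these near-equal medians may come from such a step.

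**Figure D1:**
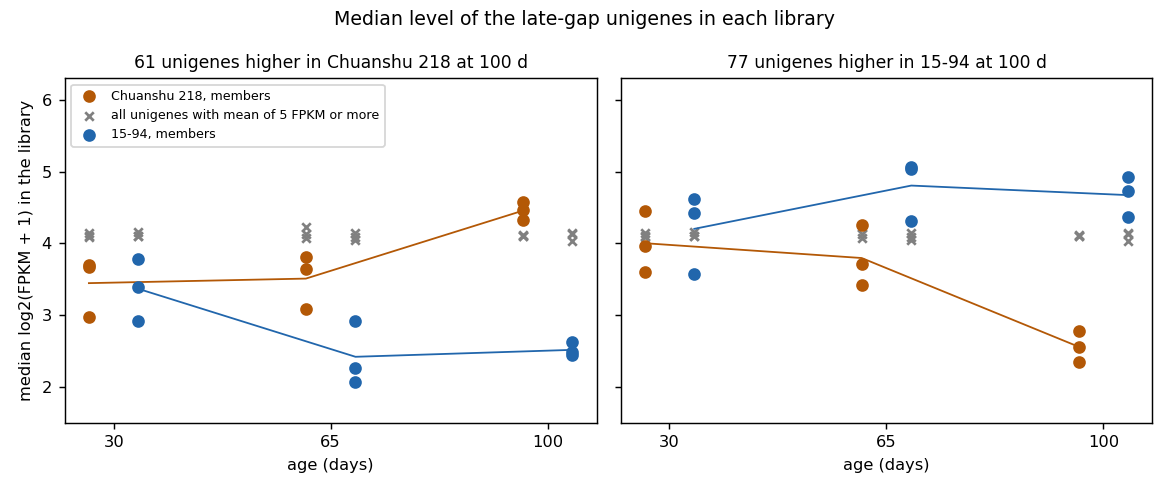
Median log2(FPKM + 1) of the late-gap unigenes in each library, by age in days; points are libraries, lines join the means of the 3 library medians, and grey crosses give the median of the 16616 unigenes at or above 5 FPKM. By the means of the library medians, the 61 unigenes of the first panel are lowest in 15-94 from 65 days on and highest in Chuanshu 218 at 100 days, and the 77 of the second panel are high in 15-94 from 65 days on and lowest in Chuanshu 218 at 100 days, while the crosses stay between 4.03 and 4.23.

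At 65 days the group means of most of these unigenes already differed in the direction of the 100-day gap, by a smaller median than at 100 days. The choice required a separation at 100 days and none at 65 days, so the smaller size at 65 days follows in part from the choice. Gaps are given here as the difference of the group means of log2(FPKM + 1), positive in the direction of the 100-day gap. In the Chuanshu 218 direction the median gap went from 0.15 (30 days) over 0.97 (65 days) to 1.83 (100 days). In the 15-94 direction it was 0.26, 0.80 and 1.80. Over the 7970 unigenes that met the limits on mean level and on the difference at 30 days, the median difference at 65 days was 0.01. At 65 days 53 of 61 and 67 of 77 unigenes had a gap above 0. At 30 days, within the limit of 0.5, 43 of 61 (70.5%) and 58 of 77 (75.3%) already lay on that side. Of the 7970, 50.4% were higher in Chuanshu 218 and 49.6% higher in 15-94 at 65 days.

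The unigenes differed in how far the gap had opened by 65 days. In the Chuanshu 218 direction 30 of 61 had a gap of at least 1 log2 unit, 16 one of 0.5 to under 1, 12 one within 0.5 of 0, and 3 a gap of at least 0.5 the other way. In the 15-94 direction the numbers were 29, 27, 18 and 3 of 77. Among all 7970 unigenes with a small difference at 30 days, 8.66% were higher by at least 1 log2 unit at 65 days in Chuanshu 218 and 5.14% in 15-94. In 12 of 61 and 6 of 77 unigenes the gap at 65 days was at least as large as at 100 days. The 12 and 18 unigenes with a gap within 0.5 of 0 at 65 days were near 0 at both earlier ages. Their median gap at 100 days was 1.88 and 1.60, and their median level of 17.0 and 28.6 FPKM was above that of the unigenes already open at 65 days, which was 9.85 and 15.2 FPKM.

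**Figure D2:**
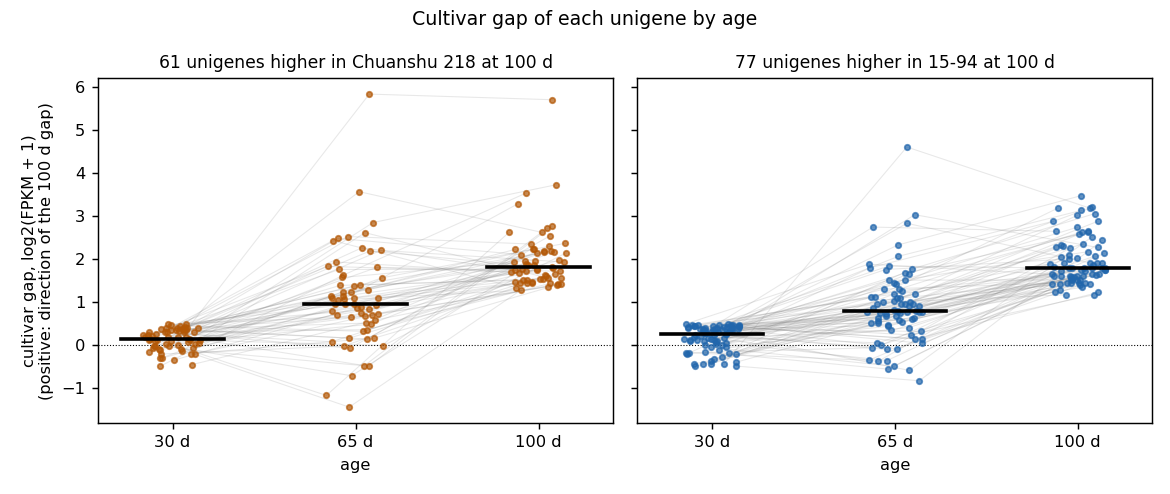
Cultivar gap of each late-gap unigene at 30, 65 and 100 days, as the difference of group means of log2(FPKM + 1), positive in the direction of the 100-day gap; points are unigenes, grey lines join the same unigene, and black bars are medians. The medians go from 0.15 over 0.97 to 1.83 in the first panel and from 0.26 over 0.80 to 1.80 in the second. The spread is widest at 65 days, the only age at which the choice set no limit on the gap.

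The test asked whether a late-gap unigene differed between the cultivars at 65 days. It was run with limma on the 6 libraries of that age over 32529 unigenes, with calls at a Benjamini-Hochberg adjusted p under 0.05 and a difference of 2-fold or more. All 61 and 77 unigenes passed the filter on low values. Higher in Chuanshu 218 were 5 of the 61 (8.2%), where 3.21% of all tested unigenes, 2.85% of the 16616 and 0.439% of the 7970 with a small difference at 30 days were called in that direction. Higher in 15-94 were 6 of the 77 (7.79%), against 2.34%, 2.62% and 0.213% of the same 3 sets. No unigene was called against the direction of its 100-day gap (limma, 0 in each direction; at an unadjusted p under 0.05 there were 2 and 0). The 5 differed by 2.21 to 5.84 log2 units at 65 days, with adjusted p from 0.00452 to 0.0363. The 6 differed by 1.66 to 4.61 log2 units, with adjusted p from 0.0115 to 0.0493. At an unadjusted p under 0.05, 19 of 61 (31.1%) and 20 of 77 (26.0%) unigenes differed in the direction of the gap. The shares were 12.3% and 7.93% among all tested unigenes, 10% and 8.6% among the 16616 and 5.24% and 3.34% among the 7970.

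With the replicate number as a block, which pairs the libraries, limma called 9 of 61 (14.8%) and 9 of 77 (11.7%). The calls over all tested unigenes then numbered 1377 (4.23%) and 1062 (3.26%), and those among the 7970 were 1.46% and 0.728%. The calls at 65 days rest on few libraries. Without Chuanshu 218 replicate 1, 2 or 3 they numbered 2, 0 and 1 in the Chuanshu 218 direction and 4, 0 and 0 in the 15-94 direction. Of all tested unigenes 3.82%, 0.347% and 0.618% were then called in the first direction and 2.14%, 0.224% and 0.443% in the second. Without 15-94 replicate 1, 2 or 3 they numbered 1, 3 and 0, and 1, 3 and 0. The shares of all tested unigenes were 0.744%, 1.22% and 0.39%, and 1.01%, 1.73% and 0.538%. Where the count was 0, unigenes at an unadjusted limma p under 0.05 were counted. Without Chuanshu 218 replicate 2 there were 14 of 61 (23.0%) and 11 of 77 (14.3%), against 10.3% and 6.15% of all tested unigenes. Without Chuanshu 218 replicate 3 there were 21 of 77 in the 15-94 direction (27.3%), against 6.26%. Without 15-94 replicate 3 there were 13 of 61 (21.3%) and 9 of 77 (11.7%), against 9.09% and 5.7%. Over all unigenes the calls in the Chuanshu 218 direction ranged from 113 to 1242 and those in the 15-94 direction from 73 to 697 when a library was left out. The median gap at 65 days stayed between 0.81 and 1.36 and between 0.66 and 1.12. With relative depth as a covariate, limma called 1 of the 61 and 2 of the 77, and 612 and 369 of all 32529 tested unigenes. The median gaps were then 0.85 and 0.66.

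The measure used for the choice, separation of the libraries, was also read at 65 days. All 3 Chuanshu 218 libraries lay above all 3 of 15-94 for 21 of the 61 unigenes (34.4%), where 11.9% of unigenes with a mean of at least 5 FPKM and 8.02% of the 7970 were separated that way. All 3 15-94 libraries lay above for 20 of the 77 (26.0%), against 11.4% and 8.22%. The nearest libraries were at least 2-fold apart for 8 and 7 of these, where 3.44% and 2.89% of unigenes with a mean of at least 5 FPKM and 0.816% and 0.364% of the 7970 were. Against the direction of the gap, 2 of the 61 and 0 of the 77 were separated, where 8.22% and 8.02% of the 7970 were separated in those directions.

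At 65 days 1 library of each cultivar was separated from the other cultivar less often than its replicates. In the Chuanshu 218 direction, replicates 1 and 2 of Chuanshu 218 lay above every 15-94 library for 40 and 42 of 61 unigenes, and replicate 3 for 27. Replicates 1 and 3 of 15-94 lay below every Chuanshu 218 library for 45 and 43, and replicate 2 for 28. In the 15-94 direction, replicates 1 and 3 of 15-94 lay above every Chuanshu 218 library for 61 and 49 of 77, and replicate 2 for 22. These counts by library were not taken over all unigenes. Whether they are particular to the late-gap unigenes was therefore not tested. With a library left out, separation is more frequent over all unigenes too, since fewer values have to be apart. Without 15-94 replicate 2 at 65 days, 39 of 61 (63.9%) and 46 of 77 (59.7%) unigenes were separated, against 15.5% and 14.0% of the 7970. Without Chuanshu 218 replicate 3 the numbers were 28 (45.9%) and 35 (45.5%), against 13.2% and 14.1%. The other 33 of 61 and 42 of 77 unigenes were not separated in the direction of the gap without that library. The 33 include the 2 that were separated against it with all libraries.

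The difference between ages lay in another interval in each cultivar. In the Chuanshu 218 direction, the level in 15-94 was lower at 65 than at 30 days by a median of 0.87 log2 units (quartiles -1.38 and -0.19), and the median change in Chuanshu 218 over that interval was 0.09 (quartiles -0.28 and 0.45). From 65 to 100 days the median change was 0.98 in Chuanshu 218 (quartiles 0.40 and 1.41) and -0.05 in 15-94 (quartiles -0.34 and 0.47). In the 15-94 direction, the median change from 30 to 65 days was 0.59 in 15-94 (quartiles 0.25 and 1.20) and 0.00 in Chuanshu 218 (quartiles -0.33 and 0.25). From 65 to 100 days it was -1.13 in Chuanshu 218 (quartiles -1.61 and -0.74) and -0.06 in 15-94 (quartiles -0.36 and 0.21).

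In both directions the medians thus differed from 0 mainly in 15-94 in the first interval and mainly in Chuanshu 218 in the second. The change from age to age is not tested here. From 30 to 65 days Chuanshu 218 added more to the gap than 15-94 in 15 of 61 and 17 of 77 unigenes, and from 65 to 100 days it did so in 49 of 61 and 69 of 77. The spread of change over all 7970 unigenes with a small difference at 30 days had the same order. Its quartiles were -0.46 and 0.42 in 15-94 and -0.23 and 0.24 in Chuanshu 218 from 30 to 65 days, and -0.21 and 0.25 in 15-94 and -0.43 and 0.37 in Chuanshu 218 from 65 to 100 days. This order is therefore not shown to be particular to the late-gap unigenes. Successive intervals share the libraries at 65 days, and the libraries at 30 and 100 days chose the unigenes, so no test is given.

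**Figure D3:**
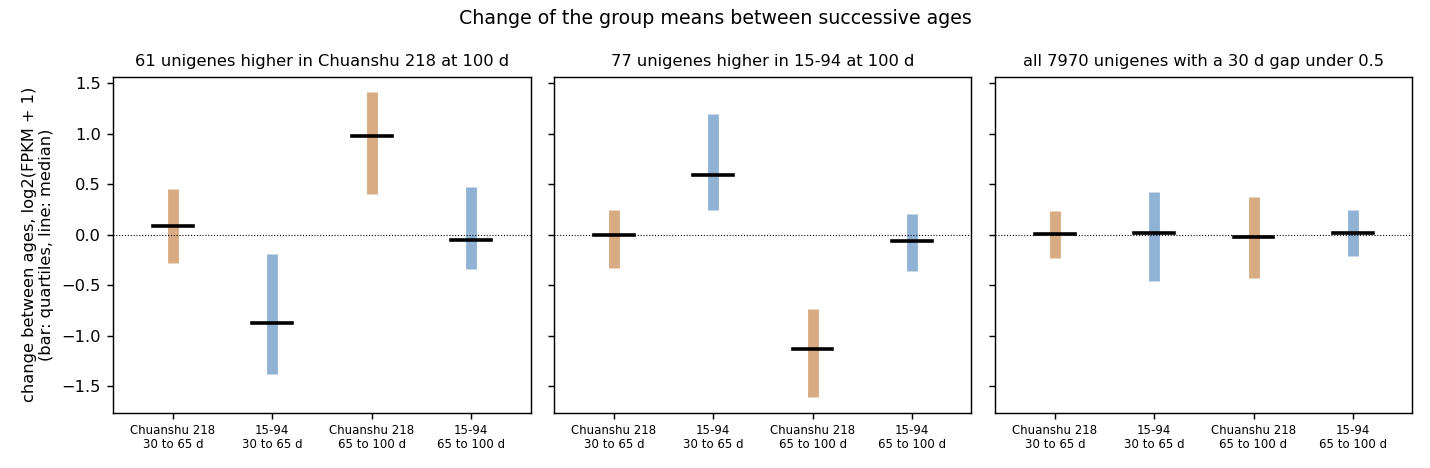
Change of the group means of log2(FPKM + 1) from 30 to 65 and from 65 to 100 days in each cultivar; bars span the quartiles over unigenes and black lines are medians. In the 61 and the 77 late-gap unigenes the medians farthest from 0 are those of 15-94 from 30 to 65 days (-0.87 and 0.59) and of Chuanshu 218 from 65 to 100 days (0.98 and -1.13), and the third panel shows that the bars of all 7970 unigenes are also wider for these intervals.

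Over the whole span from 30 to 100 days, 25 of the 61 unigenes were higher by at least 1 log2 unit in Chuanshu 218 with a smaller change in 15-94. For 19 the level in 15-94 was lower by at least 1 with a smaller change in Chuanshu 218, for 2 both held, for 5 both cultivars differed the same way by at least 1, and for 10 neither differed by 1. Among the 77, a lower level in Chuanshu 218 alone was the most frequent course, with 35 unigenes, and a higher level in 15-94 alone was seen in 14. Both held for 8, and for 20 neither cultivar differed by 1 log2 unit. The 35 had a median mean level of 24.0 FPKM, and their median level in Chuanshu 218 on the log2 scale went from 4.35 over 4.38 to 2.79 through the 3 ages. The 14 were less abundant, with a median of 8.18 FPKM, and their median level in 15-94 was 2.60, 3.82 and 3.98.

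The like means at 30 days often covered a wide spread between libraries. In 39 of 61 and 40 of 77 unigenes (63.9% and 51.9%), the libraries of 1 cultivar at 30 days lay at least 4-fold apart, compared with 28.9% of the 7970. The median SD within a group was 0.73 in Chuanshu 218 and 0.93 in 15-94 at 30 days for the 61, and 0.60 and 0.82 for the 77. At 100 days, where the choice favours tight groups, it was 0.36 and 0.37, and 0.33 and 0.36. Over all unigenes with a mean of at least 5 FPKM the median SD was 0.616 and 0.594 at 30 days and 0.381 and 0.440 at 100 days. Replicate 2 stood against the direction of the later gap in both cultivars. Without it in both, a setting chosen after seeing the data, the median gap at 30 days was 0.54 in the Chuanshu 218 direction and 0.65 in the 15-94 direction. The difference then stayed under 0.5 for 22 of the 61 and 30 of the 77, and was at least 1 in the direction of the gap for 16 and 19. For these the absence of a gap at 30 days rests on those 2 libraries.

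Most late-gap unigenes were of low to moderate abundance. In the Chuanshu 218 direction 29 of 61 had a mean of 5 to under 10 FPKM, 17 of 10 to under 20, 9 of 20 to under 50 and 6 of 50 and over, with a median of 10.4 FPKM. In the 15-94 direction the numbers were 19, 20, 22 and 16 of 77, with a median of 17.3 FPKM. Of all unigenes with a mean of at least 5 FPKM, 20.5% had 50 and over, against 9.84% of the 61 and 20.8% of the 77. The gap at 100 days reached 2 log2 units in 22 of 61 and 30 of 77 and 3 log2 units in 4 and 7.

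In each direction 2 unigenes are shown library by library, the one with the largest gap at 100 days and the one with the highest mean level. Iba_09251 had the largest gap at 100 days in the Chuanshu 218 direction. At 100 days it had 416.8, 240.3 and 72.1 FPKM in the 3 Chuanshu 218 libraries and 0.47, 21.5 and 0.56 FPKM in those of 15-94. At 65 days the values were 206.2, 65.1 and 127.8 FPKM in Chuanshu 218 and 0, 6.83 and 0.20 FPKM in 15-94. The groups did not overlap at either age. At 30 days it had 421.2, 0.49 and 19.8 FPKM in Chuanshu 218 and 41.1, 0.23 and 121.6 FPKM in 15-94. The low difference of 0.35 log2 units at that age thus stands on libraries that differed by far more within each cultivar. At 65 days Iba_09251 was higher in Chuanshu 218 by 5.84 log2 units (SE 0.78, limma adjusted p = 0.00452, 3 of 3 libraries above). The adjusted p was 0.055, 0.0561 and 0.0595 without Chuanshu 218 replicate 2, Chuanshu 218 replicate 3 or 15-94 replicate 3, which ends the call.

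Iba_37897 had the highest mean level in this direction, 296.8 FPKM over all libraries, and was higher at later ages in both cultivars. In Chuanshu 218 it had 26.4, 0.54 and 264.9 FPKM at 30 days, 886.1, 630.1 and 143.9 FPKM at 65 days, and 1052, 504.4 and 1178 FPKM at 100 days. In 15-94 it had 9.78, 12.9 and 35.1 FPKM at 30 days, 36.6, 85.7 and 13.8 FPKM at 65 days, and 182.3, 211.4 and 67.6 FPKM at 100 days. The cultivars overlapped at 30 days and not at the later ages, and the gap was larger at 65 days, 3.57 log2 units, than at 100 days, 2.63. At 65 days it was called higher in Chuanshu 218 (SE 0.79, limma adjusted p = 0.0329, 3 of 3 libraries above). The call was lost without Chuanshu 218 replicate 1, 2 or 3 (adjusted p = 0.11, 0.186 and 0.0538), without 15-94 replicate 1 or 3 (0.119 and 0.182), with all 18 libraries in the limma fit (0.0789), with no filter on low values (0.155) and with relative depth as a covariate (0.0834).

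In the 15-94 direction Iba_24085 had the largest gap at 100 days, with 6.37, 2.61 and 1.46 FPKM in Chuanshu 218 and 40.9, 39.7 and 52.2 FPKM in 15-94. At 65 days it had 5.13, 12.9 and 47.5 FPKM in Chuanshu 218 and 117.0, 34.9 and 123.8 FPKM in 15-94. Replicate 3 of Chuanshu 218 lay above replicate 2 of 15-94, so the groups overlapped. At 30 days the values were 7.56, 16.5 and 15.3 FPKM in Chuanshu 218 and 30.3, 1.27 and 62.0 FPKM in 15-94, where replicate 2 lay far below the other 2. The difference at 65 days, -2.33 log2 units for Chuanshu 218 minus 15-94 (SE 0.76), did not pass the test (limma adjusted p = 0.118).

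Iba_38424 was the most abundant of all late-gap unigenes, with a mean of 647.7 FPKM. In Chuanshu 218 it had 341.7, 748.0 and 492.7 FPKM at 30 days, 317.2, 529.9 and 748.7 FPKM at 65 days, and 134.2, 255.8 and 292.4 FPKM at 100 days. In 15-94 it had 850.2, 152.0 and 460.6 FPKM at 30 days, 1179, 747.0 and 1704 FPKM at 65 days, and 794.5, 730.8 and 1180 FPKM at 100 days. Its level in Chuanshu 218 was lowest at 100 days and that in 15-94 highest at 65 days. At 65 days 1 library of each cultivar nearly coincided, and the difference of -1.19 log2 units (SE 0.58) did not pass the test (limma adjusted p = 0.297).

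**Figure D4:**
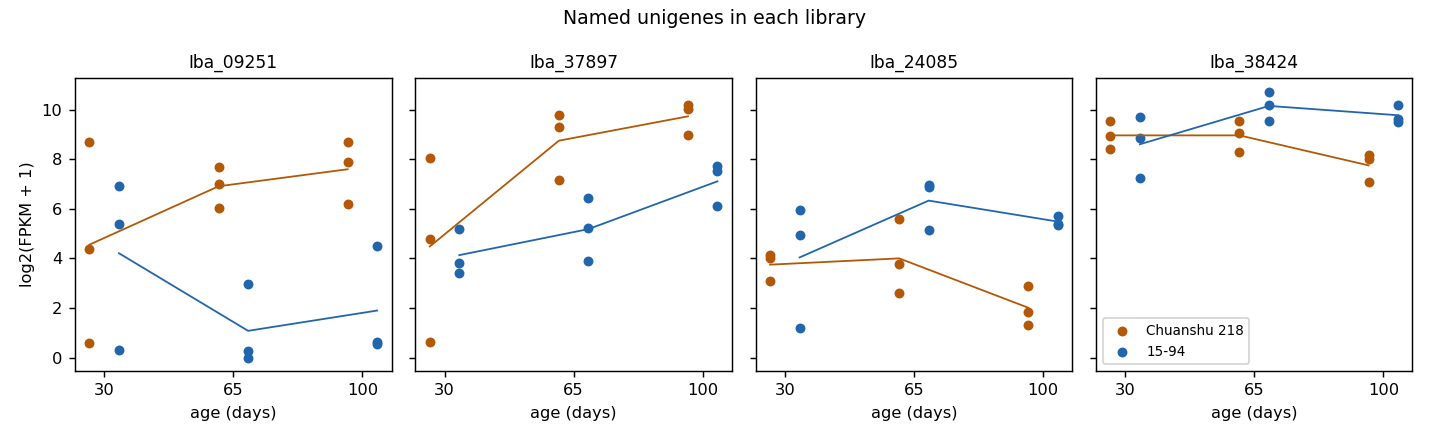
Level of the 4 named unigenes in each library as log2(FPKM + 1), by age in days; points are libraries and lines join the group means. Iba_09251 and Iba_37897 are higher in Chuanshu 218 in all 3 libraries at 65 and 100 days, and Iba_24085 and Iba_38424 are higher in 15-94 in all 3 at 100 days. At 30 days the libraries overlap between cultivars for all 4. They scatter widely at that age for Iba_09251 in both cultivars, for Iba_37897 in Chuanshu 218 and for Iba_24085 in 15-94.

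The same limits with the 2 ages exchanged, a separation at 30 days and a small difference at 100 days, were met by 19 unigenes higher in Chuanshu 218 and 21 higher in 15-94 at 30 days. These 40 were 0.55% of the 7269 unigenes with a small difference at 100 days, and the 138 late-gap unigenes were 1.73% of the 7970 with a small difference at 30 days. Fewer unigenes were separated at 30 days whatever their later course, 391 and 428 against 593 and 780 at 100 days, and the libraries of a group lay farther apart at 30 days. The median gap of the 40 at 65 days was 0.77 and 0.96 log2 units. In the direction of their gap limma called 1 of 19 (5.26%) and 1 of 21 (4.76%) at 65 days. Of all tested unigenes 3.21% and 2.34% were called in those directions, and the share among the 7269 was not taken. All libraries were separated at 65 days in the direction of the gap for 6 of 19 (31.6%) and 4 of 21 (19.0%). Of unigenes with a mean of at least 5 FPKM 11.9% and 11.4% were. At an unadjusted limma p under 0.05 there were 6 of 19 (31.6%) and 6 of 21 (28.6%), against 12.3% and 7.93% of all tested. For the late-gap unigenes these shares were 34.4% and 26.0%, and 31.1% and 26.0%. The difference between the late-gap unigenes and these 40 was not tested.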

How the data were processed

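RNA from roots was made into TruSeq stranded mRNA libraries after Trizol extraction and DNA removal, per the labels' protocols. The authors deposited 1 table of FPKM values for 46840 unigenes of a de novo assembly, in 18 columns that each matched 1 library by label. Per the submitters' processing notes edgeR was used, for a step they leave unnamed. No source used here gives the assembler, the aligner or how libraries were scaled to each other. FPKM sums lay between 731156 and 1471677. No 2 libraries held identical values, and the highest correlation between libraries was 0.916.

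Members were found by the stated limits. They, the classes and the tests were chosen with earlier results of these data known. FPKM values are not counts, so limma 3.58.1 (R 4.3.3) was run on log2(FPKM + 1) with an eBayes trend, for unigenes of at least 1 FPKM in at least 3 libraries, on the 6 libraries of 65 days alone. A fit of all 18 would share the spread of the libraries that chose the members. Differences on this scale understate those of low unigenes. This limma step was tested on simulated data. The value of 1 read was fitted to the steps between libraries, and 97.4% of library pairs lay within 0.05 (log2) of the fit. The absolute depth is unknown, and floors and counting intervals are not given. The named unigenes are, in each direction, the member with the largest gap at 100 days and that with the highest mean.

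At 65 days the deviations of same-numbered libraries from their group means correlated over unigenes by 0.336, 0.400 and 0.102 for replicates 1, 2 and 3. The replicate block is therefore given beside the calls. Other pairs had -0.399 to -0.02. Deviations within a group of 3 sum to 0, so positive values in some pairs bring negative ones in others, and this contrast is partly built in. The pairing comes from the data, since the labels do not say what a number marks. Alternatives covered pseudocounts, filters, scaling, eBayes without trend, the limits of the choice and leaving out each library. Relative depth as a covariate, leaving out sets of 2 libraries and a 2-fold separation at 65 days were added after seeing the data. Figures used Python 3.11.15, NumPy 2.4.6, pandas 2.3.3 and Matplotlib 3.10.9.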

Additional observations from a re-analysis of the deposited data

Results flagged for a closer look

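In 2 of the 61 unigenes higher in Chuanshu 218 at 100 days, all libraries were separated in opposite directions at 65 and 100 days. The first had a cultivar difference, Chuanshu 218 minus 15-94, of -1.43 log2 units at 65 days and 1.47 at 100 days. It had 4.52, 1.35 and 0.97 FPKM in Chuanshu 218 and 7.33, 5.51 and 8.27 FPKM in 15-94 at 65 days, and 5.04, 5.24 and 8.44 against 2.46, 1.18 and 1.24 FPKM at 100 days. The second had differences of -1.16 and 2.63, with 4.47, 4.59 and 3.75 FPKM in Chuanshu 218 and 11.8, 10.4 and 10.2 FPKM in 15-94 at 65 days, and 45.4, 21.2 and 16.5 against 6.77, 1.83 and 2.43 FPKM at 100 days. Neither passed the test at 65 days (limma adjusted p = 0.188 and 0.163), and the difference between the ages was not tested. No such unigene was found among the 77 (0 of 77). At 65 days, 11.4% of unigenes with a mean of at least 5 FPKM were separated with 15-94 higher and 11.9% with Chuanshu 218 higher. Of the 7970 with a small difference at 30 days, 8.22% and 8.02% were.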

How the results depend on the processing

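The median gap at 65 days was recomputed with other limma settings, scalings, depth as a covariate and each 65-day library left out, and kept its direction there. It was not recomputed under other limits of the choice, nor with a 30-day library or a single 100-day library left out. Leaving out 1 library gave 46 to 206 members in the Chuanshu 218 direction and 61 to 241 in the 15-94 direction, 0 to 3 and 0 to 4 members called at 65 days by limma, 22 to 39 and 20 to 46 members separated at 65 days, median gaps of 0.81 to 1.36 and 0.66 to 1.12, and 113 to 1242 and 73 to 697 calls over all unigenes. The separated members were 36.1% to 63.9% and 26.0% to 59.7% of all. Of the 7970 unigenes with a small difference at 30 days, 9.69% to 15.5% and 11.4% to 15.1% were then separated. The number of members followed the limits, by their construction: 228 and 326 at a fold of 1.5, 16 and 15 at 3, 33 and 28 with a 30-day difference under 0.25, 142 and 207 under 1, 141 in the Chuanshu 218 direction with a mean of at least 2 FPKM and 32 with at least 10. Median-of-ratios scaling gave 68 and 71 members, of which 61 and 70 were among those reported. Quantile normalization gave 63 and 101, of which 43 and 56 were. At 65 days limma called 2012 and 1311 of all unigenes with all 18 libraries in the fit (11 and 5 members), 647 and 444 with no filter (1 and 2 members), and 612 and 369 with relative depth as a covariate (1 and 2 members). With the replicate block, which pairs the libraries, 9 and 9 members were called, and the block changed no call of a named unigene. Without 15-94 replicate 3 at 65 and 100 days there were 125 and 157 members, 127 and 175 calls over all unigenes, 0 and 0 members called by limma and median gaps of 0.50 and 0.46. At an unadjusted p under 0.05 there were then 16 of 125 (12.8%) and 9 of 157 (5.73%), against 9.09% and 5.70% of all tested. Separated at 65 days were 33 of 125 (26.4%) and 27 of 157 (17.2%), against 14.2% and 13.4% of unigenes at or above 5 FPKM. A 2-fold separation at 65 days held for 8 and 7 members. Apart from the settings whose construction is named, the cause of these shifts was not tested.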

Other observations

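Listed at 0 in all 3 15-94 libraries at 100 days was 1 of the 61 unigenes higher in Chuanshu 218. It had 3.14, 1.52 and 0.57 FPKM in Chuanshu 218 at that age, and its mean above the limit came from 3 libraries at other ages, with 45.9, 34.5 and 38.1 FPKM. The unigenes were spread over the ID numbers of the assembly: 4 of 61 and 2 of 77 had another of the same direction within 10 ID numbers (6.56% and 2.60%), where 3.19% and 3.92% of other unigenes with a mean of at least 5 FPKM lay as close to one.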
